A study of Mus musculus with 4 samples.

Results

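The miR-202 hairpin yields a mature miRNA from each of its arms, miR-202-3p and miR-202-5p. Both were chosen by name, and they are 2 of the 567 mouse miRNAs on the array. They were followed on 4 single-colour Agilent miRNA arrays of RNA from Sertoli cells, the somatic cells that nurse germ cells in the seminiferous tubules. The cells came from adult male B6129 mice, given as 5 to 7 weeks old in the methods. By the same methods, each RNA was a pool of 5 to 7 animals. Sham mice (1 array), labelled as the control, received a Silastic implant and saline in the place of the drugs, by the methods. Flut+Acy mice (2 arrays) received flutamide (an antagonist of the androgen receptor) together with acyline, an antagonist of gonadotropin-releasing hormone that lowers gonadotropins and testicular testosterone. Flut+Acy+T mice (1 array) received both drugs and testosterone. The labels name flutamide and testosterone only, and acyline is given by the study's methods. The arrays were made to ask which Sertoli cell miRNAs respond to loss and return of androgen action. All 4 arrays were read on 1 slide in 1 scan.

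A miRNA is cut from a hairpin precursor, and one strand of the resulting duplex is loaded into an Argonaute protein, where the bases of its seed (bases 2 to 8) pair with target messenger RNAs. The arms of a hairpin come from the same transcript, but they have different seeds and can accumulate to very different levels. miR-202 is known as a miRNA of the gonads. In the fetal mouse testis it is made in Sertoli cells, where the sex-determining factor SOX9 acts on it, and it is also made in spermatogonia and in ovarian cells.

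The sequences below show where the arms lie in the hairpin and how the seed of miR-202-3p relates to that of the let-7 family. They are the RefSeq sequences on GRCm38.p6, written 5′ to 3′. Capitals mark the arms in the hairpin (5p first, then 3p) and the seed in each mature miRNA.
Mir202 hairpin: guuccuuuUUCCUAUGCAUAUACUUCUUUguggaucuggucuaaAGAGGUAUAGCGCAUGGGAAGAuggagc
mmu-miR-202-5p: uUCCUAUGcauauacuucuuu
mmu-miR-202-3p: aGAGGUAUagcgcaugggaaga
mmu-let-7a-5p: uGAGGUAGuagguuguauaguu
mmu-miR-98-5p: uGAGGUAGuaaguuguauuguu

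The hairpin of 72 bases lies on the minus strand at chr7:139957689-139957760 (GRCm38.p6), inside the interval of the long non-coding RNA gene Gm16201 (chr7:139949998-139978980), with the hairpin Mir7686 67 bases below its lower end. Exon positions of Gm16201 were not analysed here. miR-202-3p takes chr7:139957695-139957716 and miR-202-5p takes chr7:139957732-139957752, with 15 bases of loop between them. The seed of miR-202-5p is shared with no other mature mouse miRNA in the table. The seed of miR-202-3p is shared with mmu-let-7j alone, while bases 2 to 7 are common to 13 mature names, among them the 9 let-7 and miR-98 miRNAs on the array.

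The array carries 2 probes for miR-202-3p, with 10 spots each, and 1 probe for miR-202-5p, with 20 spots. In the coordinates of the scanner files (mm9), the 3p probes cover chr7:147143594-147143607 and chr7:147143594-147143608. These are bases 9 to 22 and 8 to 22 of the arm, so neither interval reaches the bases shared with let-7. The 5p probe covers the whole arm, at chr7:147143631-147143651. Because probes differ in length and sequence, the brightness of one arm was not read as its abundance relative to the other. Each arm was compared with itself across arrays.

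The arrays differed in detection and in noise. The scanner software called 193 mouse miRNAs detected on Sham, 275 and 270 for the Flut+Acy replicates and 102 for Flut+Acy+T. Detection began at a total signal of 2.67 units for Sham, 0.766 and 1.11 units for the Flut+Acy replicates and 238 units for Flut+Acy+T. The SD of 672 negative control spots was between 2.72 and 7.45 units on the first 3 arrays and 1326 units on Flut+Acy+T, where 535 spots were flagged as nonuniform. The miRNA array holds no messenger RNA markers with which to check the Sertoli cell label. It does carry 15 miRNAs listed as germ cell miRNAs. Of these, 9 were detected on Sham, 13 on each Flut+Acy array and 5 on Flut+Acy+T, and they made up 1.07%, 8.61%, 7.88% and 1.99% of the summed signal of Sham, Flut+Acy 1, Flut+Acy 2 and Flut+Acy+T.

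miR-202-3p was detected in Sham and Flut+Acy and was not detected on the Flut+Acy+T array. Its total signal, the background-subtracted sum over its probes with the software's error, was 103 ± 8.43 units on Sham. It was 312 ± 22.5 and 339 ± 24.3 units on the Flut+Acy arrays, and it was 8.25 ± 123 units with testosterone added. Flut+Acy was therefore the brighter group as scanned, with both arrays above Sham, and the Flut+Acy+T value was smaller than its own error. All 20 spots lay well above background on each Sham or Flut+Acy array, and 0 of 20 did on the Flut+Acy+T array. No spot of either arm was saturated or nonuniform.

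miR-202-5p was detected on the Flut+Acy arrays alone. Its total signal was 0.509 ± 3.48 units on Sham and 21.5 ± 4.30 and 27.0 ± 6.11 units on Flut+Acy. It was -22.5 ± 174 units with testosterone added. The Sham and Flut+Acy+T values could not be told from 0. The 2 Flut+Acy values differed by less than the larger of their errors. The number of its 20 spots that lay well above background was 14 and 9 for the Flut+Acy replicates and 0 for the other arrays.

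**Figure D1:**
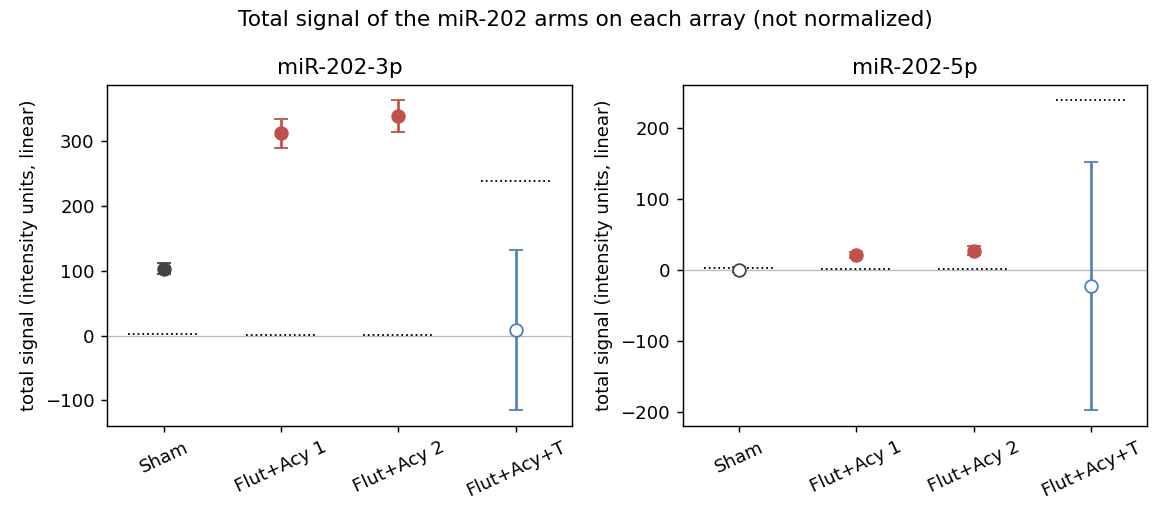
Total signal of each arm on the 4 arrays in linear intensity units, before any normalization between arrays. Points are single arrays, error bars are the software's error, open points were not detected, and the dotted line is the lowest total signal called detected on that array. miR-202-3p is seen on Sham (103 units) and more brightly on both Flut+Acy arrays (312 and 339 units), miR-202-5p only on Flut+Acy (21.5 and 27.0 units), and both lie below the dotted line of 238 units on Flut+Acy+T.

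The single spots gave the same order of arrays for both arms. For the shorter 3p probe, the 10 spots ran from 53.6 to 84.3 units on Sham with a median of 66.1. They ran from 171 to 309 units with a median of 222 on Flut+Acy 1, and from 222 to 416 units with a median of 246 on Flut+Acy 2. No Sham spot of this probe reached a Flut+Acy spot. For the longer 3p probe, the medians were 72.2 units on Sham and 250 and 259 units on Flut+Acy, but the Sham spots reached 601 units. That spot was marked by the software as an outlier, and without it the brightest Sham spot was 208 units, still above the lowest Flut+Acy spot of 182 units. On probe signals, Flut+Acy was 3.59-fold above Sham for the shorter probe and 2.82-fold for the longer one. On spot medians, the folds were 3.54 and 3.53. Spots of one array share an RNA, so they show the precision of a reading and are not replicates of a group.

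The 20 spots of the 5p probe ran from -3.17 to 2.19 units on Sham, with a median of 0.448. They ran from 9.44 to 20.2 units on Flut+Acy 1 and from 15.1 to 24.9 units on Flut+Acy 2, with medians of 16.1 and 20.2. Every Flut+Acy spot thus lay above every Sham spot, including spots that missed the software's mark for being well above background. On Flut+Acy+T the spots ran from -104 to 223 units with a median of -37.2, a spread that spans all values of the other arrays.

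**Figure D2:**
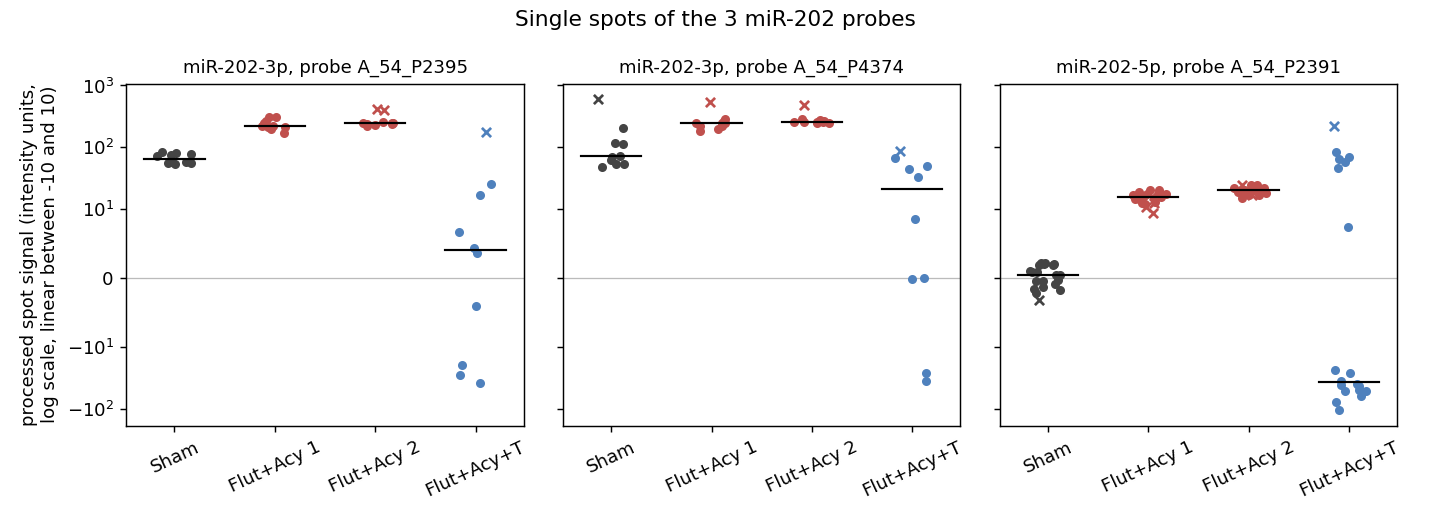
Processed signal of every spot of the 3 probes by array, on a scale that is linear between -10 and 10 units and logarithmic beyond. Points are spots, crosses are spots the software marked as population outliers, and bars are medians. Sham and Flut+Acy spots are apart for the shorter 3p probe and for the 5p probe, the longer 3p probe has a Sham spot at 601 units, and the Flut+Acy+T spots scatter around 0.

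The change of miR-202-3p between Sham and Flut+Acy depended on how the arrays were put on one scale. The study's methods used quantile normalization, which gives every array the same distribution of signals. After it, the signal of miR-202-3p was 404 units on Sham, 321 and 304 units on Flut+Acy and 5.93 units on Flut+Acy+T. Both Flut+Acy arrays were then below Sham, by a log2 difference of -0.37 (SE 0.05), which did not pass the test (limma adjusted p = 0.0716). In the same comparison limma called 54% of the 298 miRNAs tested, 25.5% higher and 28.5% lower in Flut+Acy. The SE comes from the 2 Flut+Acy arrays, and the Sham array was taken to vary like them. The labels do not say whether the Flut+Acy arrays came from separate pools, and the paper describes the array cells as pooled for each group. The p-values thus measure the spread between these arrays, which may be technical. Without normalization the log2 difference was 1.66 (limma adjusted p = 0.0104), so the direction was opposite. With processed spot signals (-0.44, limma adjusted p = 0.0438) or scaling to the 75th percentile of all mouse miRNAs (-0.52, limma adjusted p = 0.0266), it was called lower. With the Flut+Acy+T array left out of the normalization and the fit, it was -0.48 (limma adjusted p = 0.0587).

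Against the other miRNAs, miR-202-3p lay near the middle in each setting. A set of 189 miRNAs was detected on each Sham and Flut+Acy array. Their median log2 difference between Flut+Acy and Sham was 1.54 without normalization, with quartiles of 0.91 and 2.36, and 104 of the 189 lay below miR-202-3p. After quantile normalization the median was -0.37, with quartiles of -0.87 and 0.28, and 96 lay below it. With normexp, a background correction with an offset of 50 units, 72 lay below it. Across the settings tried, miR-202-3p stayed between -0.12 and 0.11 log2 units of this median. Its total signal was thus about as much brighter on Flut+Acy as that of the typical detected miRNA.

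**Figure D3:**
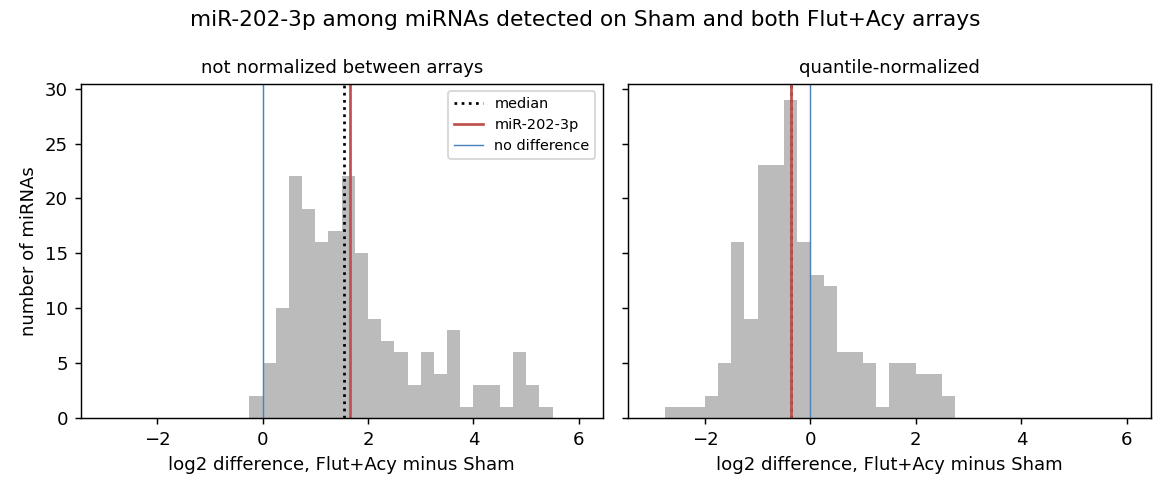
Number of miRNAs by log2 difference of Flut+Acy from Sham, for the 189 detected on each Sham and Flut+Acy array, without normalization (left) and after quantile normalization (right). The red line of miR-202-3p (1.66 and -0.37) lies beside the dotted median (1.54 and -0.37) in both panels, while its side of the blue line of no difference changes.

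miR-202-5p read higher in Flut+Acy than in Sham on either scale, and the size of that difference was not measured, since Sham gave no detected signal. Its normalized signal was -0.960 units on Sham, 39.9 and 39.6 units on Flut+Acy and -3.40 units on Flut+Acy+T. Against the lowest signal among miRNAs detected on Sham, Flut+Acy was 1.68-fold higher after normalization (23.6 units on Sham) and 9.02-fold higher without it (2.67 units). Neither is a strict bound, because 46 of the 374 miRNAs not detected on Sham read above 2.67 units, up to 9.38 units. Against the Sham signal of the arm itself plus 1, 2 or 3 software errors, Flut+Acy was 6.04-fold, 3.23-fold or 2.20-fold higher without normalization. On the same scale miR-202-3p, which lay close to the typical detected miRNA, was 3.15-fold higher in Flut+Acy. Whether miR-202-5p rose beyond the general brightness of the Flut+Acy arrays thus depended on the level allowed on Sham. Signals below 5.46 units were set to this floor before taking logs. The floor lies between the lowest normalized signals detected on Flut+Acy 1 (-12.7 units) and Sham (23.6 units). The fitted log2 difference from the floor was 2.86 (SE 0.01, limma adjusted p = 0.00436), past the test that called 25.5% of miRNAs higher. This SE rests on Flut+Acy values of 39.9 and 39.6 units, which were 21.5 ± 4.30 and 27.0 ± 6.11 units before normalization. Of the 298 miRNAs tested, 55 had equal values on both Flut+Acy arrays after normalization and flooring. The SE and p-value thus do not hold the software's error of the signals. miR-202-5p also entered the 298 through Flut+Acy alone, the only group in which it was detected. A higher value there was favoured by that filter, so passing the test is no separate support for a rise. The fitted difference moves with the floor, and a floor of 1 unit gave 5.31. With normexp it was 0.47 and did not pass (limma adjusted p = 0.0607). With the Flut+Acy+T array left out, it was 1.71 (limma adjusted p = 0.00887). The change from not detected on Sham to detected on both Flut+Acy arrays was common on these arrays, with 74 of 567 miRNAs showing it. Of these 74, 33 had a normalized Flut+Acy signal at or above that of miR-202-5p.

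On the quantile-normalized scale, miR-202-3p and miR-202-5p therefore had log2 differences of opposite sign between Flut+Acy and Sham. That of 3p did not pass the test. Without normalization both read higher in Flut+Acy. A ratio of the arms within an array does not depend on a scale factor between arrays. The 3p total signal was 14.5 ± 3.09 times the 5p total signal on Flut+Acy 1 and 12.5 ± 2.97 times on Flut+Acy 2, which is a difference smaller than either error. On Sham the ratio has only a lower end, since 5p was not detected. With 5p placed at the lowest signal called detected on that array the Sham ratio was 38.6, which is 2.86 times the Flut+Acy mean of 13.5. With 5p placed at its own signal plus 1, 2 or 3 software errors, the Sham ratio was 25.9, 13.8 or 9.43. Of these values, 13.8 lies between the Flut+Acy ratios and 9.43 lies below both. Whether the arms changed unequally thus depended on the level of 5p that is allowed on Sham.

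The difference between arms was also fitted with limma across 48 hairpins, of the 164 with both arms on the array. These 48 had each arm detected on at least 1 array. miR-202 is among them only because 5p was detected on Flut+Acy. A lower 3p minus 5p value there than on Sham was favoured by this choice, so passing the test is no separate support for a change. For miR-202, log2 3p minus 5p was 6.21 on Sham and 3.01 and 2.94 on Flut+Acy after normalization and flooring. The change was -3.23 (SE 0.06, limma adjusted p = 0.0117), and limma called 50% of the hairpins, and 16.7% in this direction. With normexp it was -0.78 and did not pass (limma adjusted p = 0.0709), and with the Flut+Acy+T array left out it was -2.19 (limma adjusted p = 0.00755). Its size rests on the floor at which 5p was placed on Sham, and with 5p at the lowest normalized signal detected there it was -1.12. The 48 changes ran from -3.53 to 4.57 with a median of 0.40. In the 12 hairpins with both arms detected on each Sham and Flut+Acy array, the changes ran from -1.13 to 0.97 and 1 was past 2-fold, beside 33.3% of all 48. miR-202 is not among these 12, and it is 1 of 16 hairpins with both arms detected on Flut+Acy and a single arm on Sham.

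**Figure D4:**
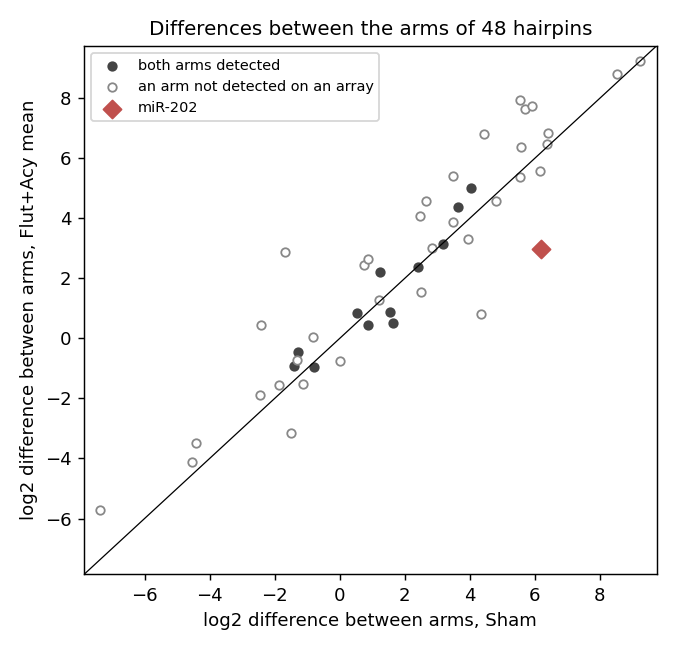
Difference between arms (log2 of the normalized, floored signals) on Sham against the mean of the Flut+Acy arrays for 48 hairpins, with the line of equal values. Filled circles are the 12 hairpins with both arms detected on these arrays, which lie near the line. The red diamond of miR-202 lies below it, at 6.21 on Sham and a mean of 2.97 on Flut+Acy, with its 5p arm at the floor on Sham. Open circles are hairpins with an arm not detected on at least 1 of these arrays.

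On the Flut+Acy+T array neither arm was detected, and the array limits what can be said of the testosterone group. For miR-202-3p, the fit gave log2 differences of -5.72 from Flut+Acy (limma adjusted p = 0.00444) and -6.09 from Sham (limma adjusted p = 0.00529), where it called 53.7% and 48.3% of miRNAs lower. These are differences from a signal of 8.25 ± 123 units. Their SE comes from the Flut+Acy arrays and does not hold the noise of the Flut+Acy+T array, so they are no measure of a change. Against the lowest signal detected on Flut+Acy+T, miR-202-3p was 3.02-fold higher in Flut+Acy and 3.90-fold higher in Sham after normalization. Without normalization it was 1.36-fold higher in Flut+Acy, while the 103 units of Sham were under that lowest signal of 238 units. None of these is a strict bound, since 36 of the 465 miRNAs not detected on Flut+Acy+T read above 238 units, up to 498 units. With its own Flut+Acy+T signal raised by 3 errors, to 378 units, miR-202-3p read no higher in Flut+Acy (325 units). On Flut+Acy+T, the 3p spots not marked as outliers reached 25.7 units (shorter probe) and 67.4 units (longer probe). Marked spots reached 176 and 86.3 units. The lowest Flut+Acy spots of these probes were 171 and 182 units, but spots of one array are not replicates. Given the software's error on this array, a fall of miR-202-3p in Flut+Acy+T was not shown. Of the 189 miRNAs detected on each Sham and Flut+Acy array, 113 were not detected on Flut+Acy+T. Among the 77 of the 189 that were at least as bright on Flut+Acy as miR-202-3p, 14 were not detected there, and miR-202-3p is 1 of these.

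For miR-202-5p, the fitted log2 difference of Flut+Acy+T from Flut+Acy was -2.86 (limma adjusted p = 0.00201), with the same limit, and its Flut+Acy signal was under the lowest signal detected on the Flut+Acy+T array on either scale, so no fold can be given. A level of miR-202-5p like that of Flut+Acy would not have been detectable on this array. Of the 74 miRNAs not detected on Sham but detected on both Flut+Acy arrays, 67 were not detected on Flut+Acy+T. Against Sham, miR-202-5p was at the floor on both sides and no difference was measured. The fitted arm difference of Flut+Acy+T was -2.86 from Flut+Acy (limma adjusted p = 0.00340), where 47.9% of the hairpins were called lower, and -6.09 from Sham (limma adjusted p = 0.00260), where 39.6% were. With neither arm detected on that array, these are differences from the floor and say nothing of how the arms stood to each other.

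The let-7 family, which holds many cells in a differentiated state, shares bases 2 to 7 with miR-202-3p but little else. The 9 members on the array, let-7a to let-7g, let-7i and miR-98, have 7 to 9 of 22 bases in common with miR-202-3p in the same positions. In Flut+Acy against Sham, their log2 differences ran from -0.69 (miR-98) to 0.31 (let-7g) with a median of -0.37, beside -0.15 over all 298 miRNAs tested. limma called 0 of the 9 higher and 4 lower (let-7a, let-7c, let-7e and miR-98), beside 25.5% higher and 28.5% lower over all miRNAs tested. None of the 9 was past 2-fold, beside 21.5% (higher) and 17.8% (lower) of all miRNAs tested. The value of miR-202-3p (-0.37) lay within the range of this list. As scanned, let-7a read 2564 units on Sham, 4696 and 5789 units on Flut+Acy and 7887 units on Flut+Acy+T, so both Flut+Acy arrays were above Sham as they were for miR-202-3p. On Flut+Acy+T, where detection began at 238 units, the 8 let-7 members were detected, and miR-98 and miR-202-3p were not. On Flut+Acy, the dimmest of the 8 (let-7e) read 931 and 1079 units, miR-202-3p 312 and 339 units and miR-98 115 and 134 units. Those detected on Flut+Acy+T were thus the brighter ones on Flut+Acy, but the signals did not keep this order. On Flut+Acy+T, miR-98 read 156 units and miR-202-3p 8.25 ± 123 units. The reason for the missing detection of miR-202-3p was not tested. The list's log2 differences of Flut+Acy+T from Flut+Acy ran from -1.26 (miR-98) to 0.56 (let-7c). Their median was 0.20, beside -1.08 over all 298. limma called 3 of the 9 higher (let-7a, let-7c and let-7e) and 2 lower (let-7g and miR-98), beside 21.5% higher and 53.7% lower over all miRNAs.

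The miRNAs whose pattern over the 4 arrays was most like that of each arm were found by the root mean square difference of the normalized log2 values, each centred on its own mean. For miR-202-3p, among 188 candidates detected on the same 3 arrays, these were miR-140* (0.459), miR-801 (0.463), miR-101b (0.567), miR-125a-3p (0.594) and miR-878-3p (0.625). All 5 were detected on each Sham and Flut+Acy array and were at the floor on Flut+Acy+T, so their likeness rests in part on an array without detection. For miR-202-5p, among 262 candidates, they were miR-130b (0.0613), miR-17 (0.0776), miR-129-5p (0.0808), miR-742 (0.15) and miR-297c (0.160). All 5 were at the floor on Sham and Flut+Acy+T, so their likeness rests on the 2 Flut+Acy arrays. miR-202-3p itself came at rank 239 of the 262, with a difference of 2.15. This rank rests in part on the floor, at which miR-202-5p was placed on Sham while miR-202-3p was detected there.

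The miRNAs listed for other cells were read beside the arms. The germ cell miRNAs took their larger shares of the summed signal on the Flut+Acy arrays, the same arrays on which miR-202-5p was detected. Many of this list, miR-741 among them, were reported by the paper from these arrays as higher in Flut+Acy Sertoli cells. Their larger share there is thus not independent of these data. Of the germ cell list, miR-741 read 34.7 units in Sham, 1118 and 1175 units in Flut+Acy and 437 units in Flut+Acy+T. In contrast, miR-449b and miR-449c were not detected on any array. The 6 blood miRNAs made up 0.395% of the summed signal on Sham and 0.283% and 0.263% on Flut+Acy, and none was detected on Flut+Acy+T. The 5 muscle and peritubular miRNAs made up 3.08% in Sham, 1.85% and 1.91% in the Flut+Acy replicates and 2.12% with testosterone. For the 2 endothelial miRNAs, the shares were 1.12% in Sham, 1.42% and 1.33% in the Flut+Acy replicates and 1.99% with testosterone. The part of other cells in the levels of the miR-202 arms was not tested. In such pooled RNA, fewer cells of a type and less RNA per cell cannot be told apart.

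**Figure D5:**
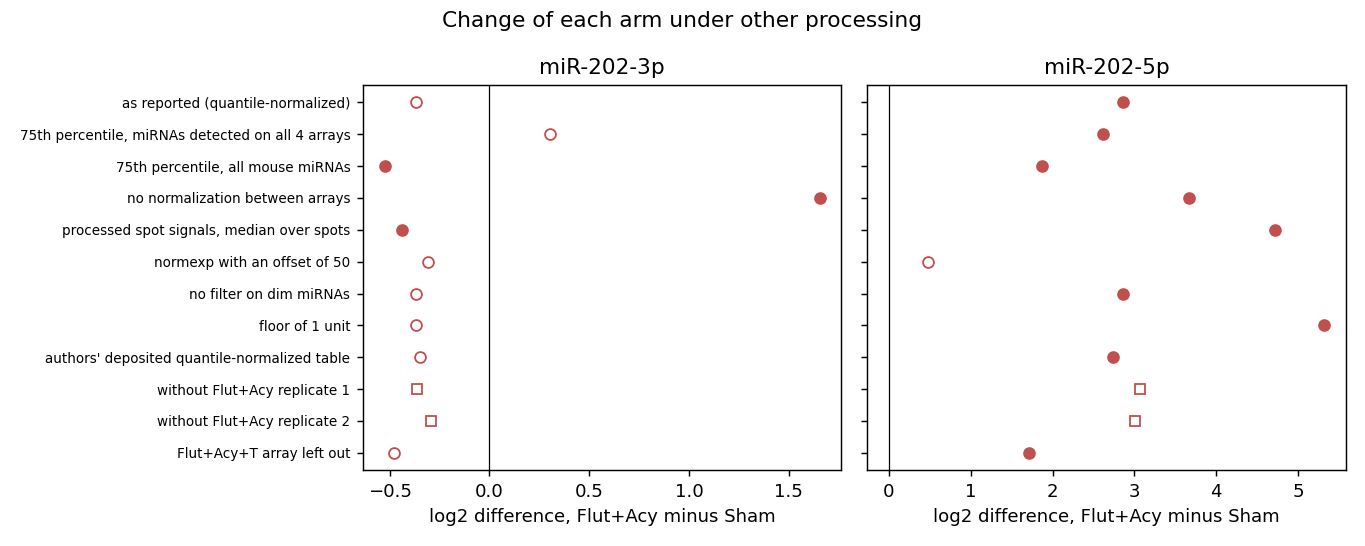
Log2 difference of Flut+Acy from Sham for each arm under each way of processing the arrays. Filled circles passed limma at an adjusted p of 0.05, open circles did not, and squares are values with no test. miR-202-3p lies on both sides of 0 (-0.52 to 1.66), and miR-202-5p lies above 0 in each setting shown (0.47 to 5.31).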

How the data were processed

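RNA from pooled Sertoli cells was hybridised to 4 arrays. The authors deposited scanner output (Feature Extraction 9.5.3.1) with background-subtracted intensity values on a linear scale, not normalized between arrays, and detection and spot flags. They also deposited a quantile-normalized intensity table, used here as an alternative, for which how spots were combined is not given in the sources used here. Control features and 10 viral miRNAs were left out. The 567 mouse miRNAs' total signals were then quantile-normalized. Values under 5.46 units were raised to it before log2 was taken, this floor being the median, across arrays, of each array's lowest normalized value for a detected miRNA (23.6, -12.7, -21.5 and 104 units, so 2 of them below 0). All 3 groups entered one fit in limma 3.58.1 (R 4.3.3), with Benjamini-Hochberg adjustment over 298 miRNAs detected on at least 1 array, at an adjusted p of 0.05 or a 2-fold difference. Only Flut+Acy had replicates, which left 1 residual degree of freedom, and 1 array per group elsewhere limits the precision. The members and all lists were chosen with earlier results of these data known. Named miRNAs are both arms, the let-7 and miR-98 list and the 5 nearest patterns of each arm; others were chosen after their values were seen. Sequences and GRCm38.p6 coordinates are from RefSeq, and mm9 coordinates from the scanner files. The alternatives were other scalings, background corrections, filters and floors, the deposited table and leaving out each Flut+Acy array; leaving out the Flut+Acy+T array was added after seeing the data. All arrays shared 1 slide and scan, so no block applied.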

Additional observations from a re-analysis of the deposited data

How the results depend on the processing

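For Flut+Acy against Sham, the log2 difference of miR-202-3p (-0.37) turned to 0.31 with scaling to the 75th percentile of miRNAs detected on all 4 arrays (limma adjusted p = 0.0712) and to 1.66 without normalization between arrays (limma adjusted p = 0.0104). It passed the test at -0.52 with the 75th percentile of all mouse miRNAs (limma adjusted p = 0.0266) and at -0.44 with processed spot signals (limma adjusted p = 0.0438). Normexp with an offset of 50 units took miR-202-5p to 0.47 (limma adjusted p = 0.0607) and the arm difference to -0.78 (limma adjusted p = 0.0709), and processed spot signals took the arm difference of Flut+Acy+T from Flut+Acy to -0.85 (limma adjusted p = 0.0697). Without one or the other Flut+Acy array, Flut+Acy against Sham ran from -0.36 to -0.29 for miR-202-3p, from 3.01 to 3.06 for miR-202-5p and from -3.43 to -3.31 for the arm difference. Flut+Acy+T against Flut+Acy then ran from -5.82 to -5.69, from -3.06 to -3.01 and from -2.81 to -2.62. Those runs leave a single array per group and so have no test. A floor of 1 unit gave 5.31 for miR-202-5p and -5.68 for the arm difference. Over all settings, Flut+Acy+T ran from -5.82 to -1.64 against Flut+Acy and from -6.15 to -1.95 against Sham for miR-202-3p, and from -5.31 to -0.39 against Flut+Acy for miR-202-5p. Of the 75 alternatives with a test to the 9 differences of the arms, 68 kept direction and side of the threshold. This count includes the differences of Flut+Acy+T, where neither arm was detected, so it is no measure of how firm the results are. For miR-202-3p in Flut+Acy against Sham, the result held in 6 of 11 alternatives, those without a test included. A filter on detection on all 4 arrays left neither arm.

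The miRNAs called in Flut+Acy against Sham numbered 161 (76 higher, 85 lower), but 74 with processed spot signals, 42 with the filter on all 4 arrays, 63 with no filter, and 0 with normexp, where 121 had an unadjusted p under 0.05. Scaling changed the split, to 111 higher and 30 lower with the 75th percentile of miRNAs detected on all 4 arrays, 84 and 111 with that of all mouse miRNAs, and 218 and 0 without normalization. Those past 2-fold numbered 117, but 221 without normalization, 28 with normexp and 20 with the filter on all 4 arrays. For Flut+Acy+T against Flut+Acy, 224 were called, but 42 with that filter, and 204 were past 2-fold, but 71 with normexp and 22 with that filter. For Flut+Acy+T against Sham, 196 were called, but 121 with processed spot signals, 125 with normexp and 23 with that filter, and 175 were past 2-fold, but 70 with normexp and 17 with that filter. The cause of these shifts was not tested. The methods' single-factor analysis of variance gave 130 miRNAs with an unadjusted p under 0.05 and 0 after Benjamini-Hochberg adjustment (0.0769 for each arm), where limma called 161 to 224. The analysis of variance gave no p-value for the 55 miRNAs with equal values on both Flut+Acy arrays. Its counts thus rest on fewer miRNAs than those of limma. No paired analysis was possible because Sham and Flut+Acy+T have 1 array each and share no replicate numbers with both Flut+Acy arrays.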
